A study of Homo sapiens with 9 samples.

Results

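The histone deacetylase genes, the sirtuin genes and the genes of 4 corepressor complexes were followed as 39 named members among the 61209 rows of a gene count table from GIST-T1 cells. The members were selected on gene symbol and complex membership, with earlier results of these libraries known, and all 39 had a row. They comprised 4 class I HDACs, 4 class IIa HDACs, 3 class IIb and IV HDACs, 7 sirtuins, 11 subunits of NuRD, 4 of NCoR, 4 of CoREST and the 2 SIN3 scaffolds. HDAC3, MBD3 and HDAC4 had been singled out in the earlier results for their change after knockdown, so for these 3 genes the values that involve the knockdown libraries are a description and carry no test.

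GIST-T1 is an imatinib-sensitive line from a human gastrointestinal stromal tumor (GIST), and its labelled genotype was KIT exon 11 del560-79 in every library. Polyadenylated RNA was sequenced 48 h after transfection in 3 groups of 3 libraries. They were a non-target siRNA control (siNC), ESRRA siRNA, which targets the transcript of the nuclear receptor ERRα (siERRα), and the non-target siRNA with 50 nM imatinib, a KIT inhibitor (siNC + imatinib). All 9 libraries therefore came from transfected cells of 1 line, and no group received both ESRRA siRNA and imatinib. Nothing in the labels ties a library to its own culture, and p-values therefore measure the spread between these libraries, which may be technical. Whether the ESRRA siRNA was 1 sequence or a pool was not given in the sources used here.

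Histone deacetylases remove acetyl groups from lysines of histones and other proteins. Class I enzymes are mostly nuclear and work inside multisubunit corepressors, which transcription factors recruit to chromatin: HDAC1 and HDAC2 are shared by NuRD, CoREST and SIN3, and HDAC3 is the enzyme of NCoR. Class IIa enzymes shuttle between nucleus and cytoplasm, while sirtuins form a separate family that consumes NAD.

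Total counts ranged from 37527236 to 49363002 per library, and the members took between 0.303% and 0.320% of them. ESRRA stood at 42.1 ± 2.24 CPM (counts scaled to library size by TMM, mean ± SD, n = 3) in siNC, at 1.17 ± 0.356 CPM in siERRα, which is 2.77% of control, and at 32.7 ± 2.69 CPM with imatinib. The tumor markers KIT and ANO1 were high in siNC (1305 and 384 CPM), and the leukocyte and endothelial genes PTPRC and PECAM1 were close to 0 (0.00662 and 0.0132 CPM). Of 6 GIST markers, 4 were called higher with imatinib (KIT, ANO1, ETV1 and PRKCQ), beside 21.4% of all genes. The other 2, CD34 and FOXF1, were called lower, beside 20.3%. After knockdown 3 were called higher (ETV1, FOXF1 and PRKCQ), beside 11.4% of all genes, and none lower. Of 10 markers of leukocytes, endothelium and epithelium, 3 were called with imatinib. The 41.7% of all genes called with imatinib is a share of tested genes, and not all 10 markers were tested. PTPRC, CD68, CD3E, PECAM1, EPCAM and KRT19 had too few reads to be tested, and VWF was tested but not called. The 3 called were CDH5 and CDH1, higher at under 2 CPM, and KRT18, which fell from 296 to 196 CPM. In siNC, EPCAM stood at 0.175 CPM and KRT19 at 0. Mitochondrially encoded transcripts took 0.846% to 1.03% of counts in the siNC and siERRα libraries and 1.48% to 1.54% in the imatinib libraries. The part of these shifts in the imatinib and knockdown values below was not tested. In bulk RNA, fewer cells of a kind and less RNA per cell cannot be told apart.

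ATGTTCT, a heptamer that stood out in the 3′ UTRs of lower genes only after the values of these libraries were seen, was looked up in the members. It was found in 10 members, of which 6 were not called after knockdown. The other 4, HDAC3 by its described value and RCOR3, GATAD2B and TBL1X by call, are shown. MBD2, the alternative to MBD3 in NuRD, is added as an example of the 6. Each has 11 bases on each side, in transcript orientation from the GRCh38 genome, with the heptamer in capitals.
HDAC3 (chr5:141620941-141620969, minus strand): aggatatgaaaATGTTCTgttctcacttt
RCOR3, first copy (chr1:211316035-211316063, plus strand): tatataatttcATGTTCTatgaggaattt
RCOR3, last copy (chr1:211316311-211316339, plus strand): tcaaactttttATGTTCTtaataagcttg
GATAD2B (chr1:153808562-153808590, minus strand): cactggggggaATGTTCTcagcagagaag
TBL1X (chrX:9719530-9719558, plus strand): tacagccagacATGTTCTctattggcatt
MBD2 (chr18:54152141-54152169, minus strand): tcttcaggcagATGTTCTttcccgccttc
All 6 windows lie in the 3′ UTR of the annotated canonical transcript. HDAC3 and RCOR3 were lower after knockdown, GATAD2B and TBL1X were higher, and MBD2 did not pass the test.

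The first question was how ERRα knockdown altered transcripts of the deacetylases and their complexes. HDAC3 and MBD3 stood far below control, HDAC11, SIRT3 and RCOR3 fell by less, and 8 members were higher. Of the 38 members tested, 5 were called lower (13.2%, against 12.6% of all 16976 genes tested) and 8 higher (21.1%, against 11.4% of all genes), a called member being one with an adjusted p under 0.05 in edgeR's quasi-likelihood test. In either direction 34.2% of members and 23.9% of all genes were called. The median absolute log2 fold change was 0.10 over the members and 0.17 over all genes tested, so most members moved little. The member shares above include HDAC3, MBD3 and HDAC4, singled out earlier for this change. Without these genes the calls were 3 lower and 7 higher, beside 12.6% and 11.4% of all genes.

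**Figure D1:**
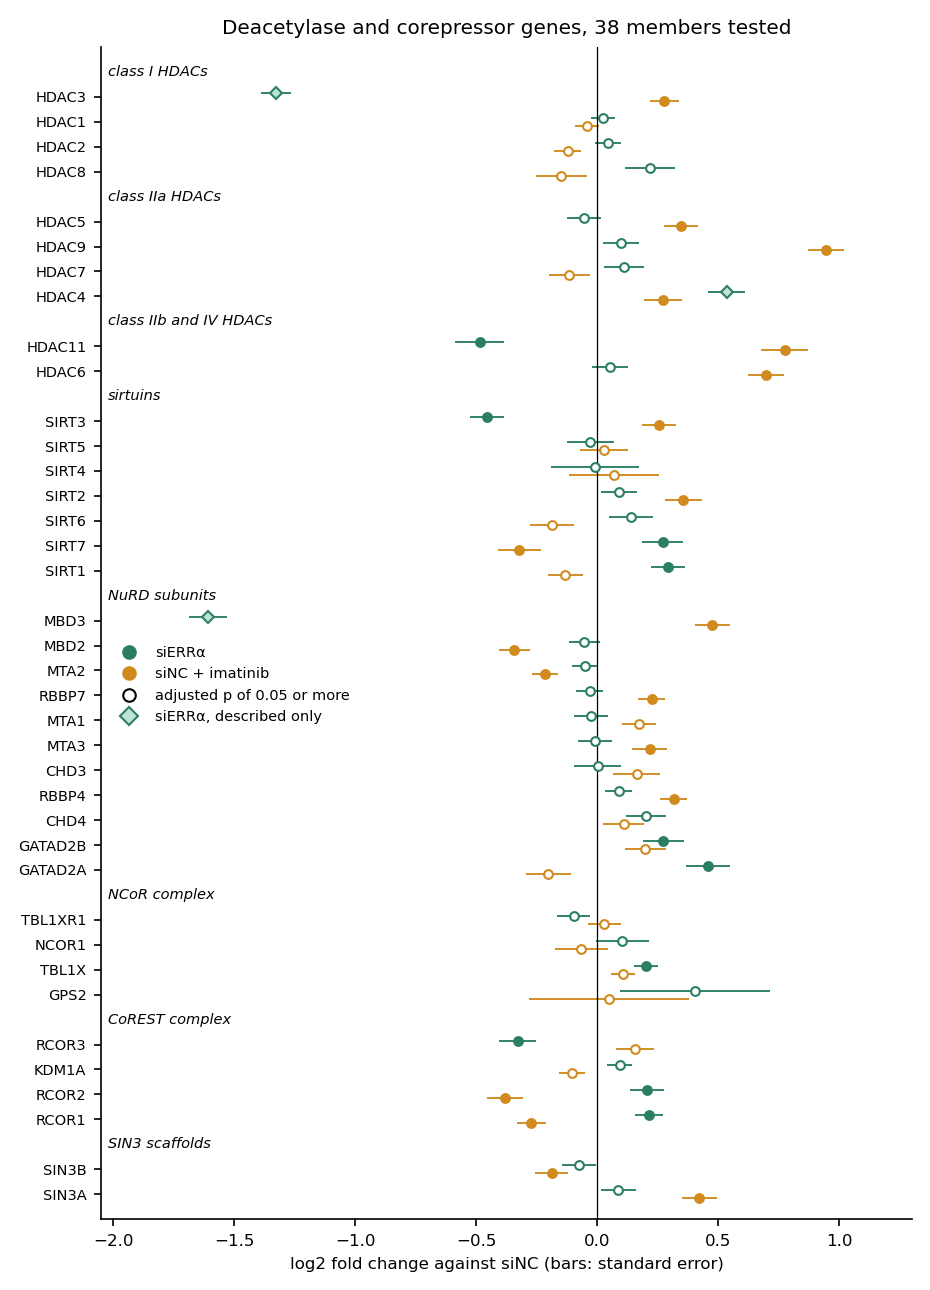
Log2 fold change against siNC (horizontal axis) of the 38 members tested, grouped by class or complex, for siERRα (green) and siNC + imatinib (orange). Bars are standard errors, open circles have an adjusted p of 0.05 or more, and diamonds mark the 3 knockdown values given without a test. HDAC3 and MBD3 lie furthest to the left (−1.33 and −1.61), and HDAC9, HDAC11 and HDAC6 have the most positive imatinib values (0.94, 0.77 and 0.70).

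Among class I HDACs, HDAC3 stood apart after knockdown. HDAC3, on chromosome 5 (141620876 to 141636849, minus strand), was at 74.6, 79.9 and 72.5 CPM in the siNC libraries, at 29.8, 29.2 and 31.5 CPM in siERRα and at 89.0, 92.8 and 93.1 CPM with imatinib. The 3 groups did not overlap, with knockdown at 39.8% and imatinib at 121% of the control mean. The log2 fold change was −1.33 (SE 0.0623) after knockdown, and 0.28 with imatinib (SE 0.0599, adjusted p = 0.00102). HDAC1, the most abundant deacetylase here, was at 240 ± 1.83 CPM in siNC, 244 ± 6.93 in siERRα and 233 ± 5.4 with imatinib. HDAC2, its close paralog, was at 123 ± 1.42, 126 ± 7.17 and 113 ± 2.00 CPM, and neither treated group passed the test against siNC. HDAC8, which acts on cohesin among other substrates, was at 11.5 ± 1.10, 13.3 ± 1.72 and 10.4 ± 0.837 CPM and passed in neither comparison.

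On a per-length scale the class I pool shifted with HDAC3. HDAC3 made up 19.1%, 20% and 18.6% of the summed class I CPM per kb in the siNC libraries, 8.68%, 8.13% and 8.70% in siERRα and 22.9%, 23.1% and 23.0% with imatinib. These shares repeat the HDAC3 change as a part of its class and are no separate measurement.

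HDAC4 was the class IIa gene that was higher after knockdown. Its libraries read 28.6, 29.6 and 30.8 CPM in siNC, 44.8, 43.3 and 40.8 CPM in siERRα and 39.9, 32 and 35.6 CPM with imatinib, and every treated library lay above every control. The log2 fold change was 0.54 (SE 0.0771) after knockdown. HDAC5, HDAC7 and HDAC9, the other signal-responsive deacetylases of the class, had knockdown values of −0.06, 0.11 and 0.10, none past the test.

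HDAC11, the lone class IV enzyme, which removes long fatty acyl groups as well, fell after knockdown from a low level. It read 5.88, 5.88 and 5.74 CPM in siNC and 4.07, 4.21 and 4.22 CPM in siERRα, so the groups were apart at 71.4% of control (log2 fold change −0.49, SE 0.102, adjusted p = 0.00161). HDAC6, the cytoplasmic tubulin deacetylase, was at 23.2 ± 1.96 CPM in siNC and 24.1 ± 1.53 CPM in siERRα (adjusted p = 0.677). HDAC10, a polyamine deacetylase, had only 15 reads in the 9 libraries and was not tested. Of its exon bases, 55.8% are shared with MAPK12 on the same strand, which had 9499 reads, so reads of HDAC10 may not have been assigned to it.

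Of the 7 sirtuins, 1 fell, 2 rose and 4 did not pass after knockdown. SIRT3, the main mitochondrial deacetylase, was at 29.2, 33.0 and 29.6 CPM in siNC and at 22.1, 22.3 and 22.5 CPM in siERRα. Every knockdown library lay below every control (72.9% of control, log2 fold change −0.46, SE 0.0707, adjusted p = 9.5e-05). SIRT1, the nuclear sirtuin that acts on p53 and PGC-1α, rose from 53.6, 46.3 and 51.4 CPM to 57.5, 67.4 and 60.2 CPM (log2 fold change 0.29, SE 0.0712, adjusted p = 0.00518). SIRT7, a nucleolar enzyme, rose from 22.6, 25.9 and 23.1 CPM to 30.2, 26.9 and 29.2 CPM (0.27 on the log2 scale, adjusted p = 0.0264). In both genes the control and knockdown ranges were apart. SIRT4 and SIRT5, the other mitochondrial members, had knockdown values of −0.01 and −0.03 with standard errors of 0.183 and 0.0967. SIRT2, mostly cytoplasmic, and SIRT6, a chromatin enzyme, had values of 0.09 and 0.14, not past the test.

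**Figure D2:**
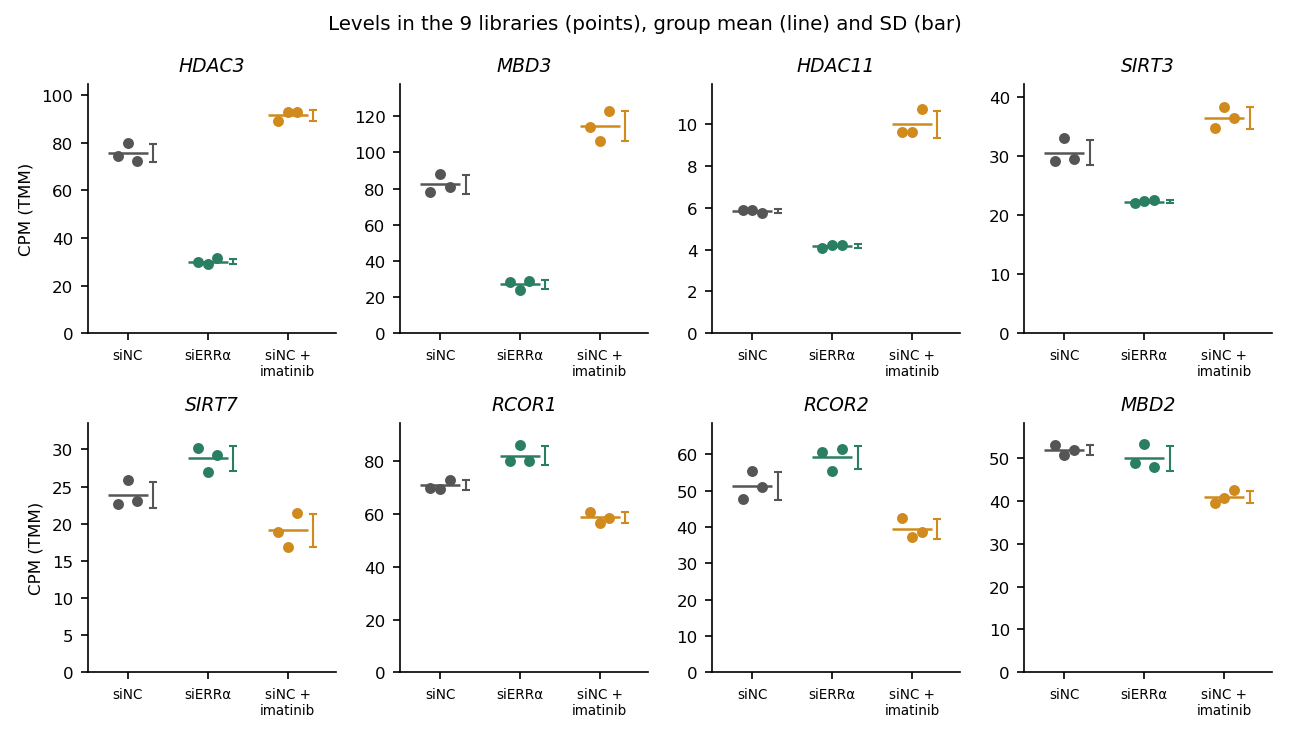
CPM (vertical axes, from 0) of 8 members in the 9 libraries, with points for libraries, a line for the group mean and a bar for the SD (n = 3). In HDAC3, MBD3, HDAC11 and SIRT3 the siERRα libraries lie below siNC and the imatinib libraries above, and in SIRT7, RCOR1 and RCOR2 the order is the reverse. In MBD2 only the imatinib libraries lie apart (39.6 to 42.5 CPM).

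NuRD joins HDAC1 and HDAC2 to a CHD-family chromatin remodeler, and either MBD2 or MBD3 sits in a given complex. MBD3, on chromosome 19 (1573596 to 1592865, minus strand), was at 78.1, 88.1 and 80.7 CPM in siNC, at 28.2, 24.2 and 28.7 CPM in siERRα and at 114, 106 and 123 CPM with imatinib. The 3 groups were apart, with log2 fold changes of −1.61 (SE 0.0771) for knockdown and 0.48 for imatinib (SE 0.0732, adjusted p = 3.53e-05). MBD2, the methyl-CpG-binding alternative to MBD3, read 53.1, 50.6 and 51.7 CPM in siNC and 48.7, 53.2 and 47.8 CPM in siERRα, which overlapped. Per kb of exon, MBD3 was 53.3% ± 2.13 of the MBD2 and MBD3 total in siNC, 28.0% ± 3.01 in siERRα and 66.7% ± 1.28 with imatinib (SD, n = 3). By this length, most of the total was MBD2 after knockdown and MBD3 with imatinib.

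The GATAD2 subunits, which bridge the MBD and CHD parts of NuRD, rose after knockdown. GATAD2A went from 136, 139 and 141 CPM to 204, 186 and 181 CPM (log2 fold change 0.46, SE 0.0917, adjusted p = 0.00146). GATAD2B went from 44.4, 43.3 and 50.1 CPM to 58.9, 55.9 and 51.8 CPM (0.27, SE 0.0848, adjusted p = 0.0242). In both genes the lowest knockdown library was above the highest control. The 8 other NuRD members did not pass. The MTA scaffolds MTA1, MTA2 and MTA3 had values of −0.03, −0.05 and −0.01, the histone chaperones RBBP4 and RBBP7 of 0.09 and −0.03, and the remodeler CHD3 of 0.00. CHD4, the other remodeler, had a value of 0.20 (adjusted p = 0.0836), but 46.9% of its exon bases are also annotated to a same-strand gene listed at 0 reads, and reads in such bases may not have been assigned.

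CoREST couples HDAC1 and HDAC2 to the demethylase KDM1A through an RCOR scaffold, and its 3 scaffolds did not move together. RCOR3 fell from 19.4, 17.7 and 18.8 CPM to 14.4, 15.6 and 14.5 CPM (79.6% of control, log2 fold change −0.33, SE 0.0773, adjusted p = 0.00395). RCOR1 rose from 70.0, 69.6 and 73.1 CPM to 80.1, 86.2 and 80.2 CPM (0.21, SE 0.0585, adjusted p = 0.0116). RCOR2 rose from 47.6, 55.3 and 51.0 CPM to 60.6, 55.5 and 61.4 CPM (0.20, SE 0.0715, adjusted p = 0.0434). For RCOR2 the lowest knockdown library barely cleared the highest control. KDM1A itself was at 105 ± 1.45 CPM in siNC and 112 ± 2.71 CPM in siERRα and did not pass (adjusted p = 0.22). Per kb, RCOR3 was the minor scaffold throughout, at 6.78% of the 3 in siNC and 4.76% in siERRα.

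In NCoR, which carries HDAC3, 1 of the 4 measured genes rose after knockdown. TBL1X, a WD-repeat subunit, went from 172, 178 and 173 CPM to 203, 200 and 198 CPM (log2 fold change 0.20, SE 0.0497, adjusted p = 0.00597), with the groups apart. Its paralog TBL1XR1 had a value of −0.10 (adjusted p = 0.328) and the scaffold NCOR1 of 0.10 (adjusted p = 0.556). GPS2 had 224 reads in all 9 libraries and 44.7% of its exon bases shared with a same-strand gene. The pseudogene GPS2P1 drew 173 reads, and EIF5A, with 372923 reads, overlaps 7.8% of the GPS2 exon bases on the opposite strand. The GPS2 value of 0.41 (SE 0.31) therefore has little weight. The SIN3A and SIN3B scaffolds, which hold HDAC1 and HDAC2 in another complex, had knockdown values of 0.09 and −0.08, neither past the test.

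Some knockdown calls were lost when 1 library was left out, a setting that also leaves fewer libraries for the test. SIRT7 lost the call without siNC library 1 or 3 or siERRα library 1 or 3 (adjusted p = 0.0956 to 0.13), GATAD2B without siNC library 1 or 2 or siERRα library 1 (0.085 to 0.103), RCOR1 without siNC library 1 (0.0532), and RCOR2 in 8 of 16 alternative settings, among them without siNC library 1 or 3, siERRα library 1 or 3 or imatinib library 3 (0.0597 to 0.209).

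Imatinib was the next comparison, which asks how KIT inhibition altered the same genes. The class II deacetylases HDAC4, HDAC5, HDAC6 and HDAC9 rose with HDAC11, the MBD3, MTA3, RBBP4 and RBBP7 subunits of NuRD, SIRT2, SIRT3, HDAC3 and SIN3A rose too, and MBD2, MTA2, RCOR1, RCOR2, SIRT7 and SIN3B fell. Of 38 members, 6 were called lower (15.8%, against 20.3% of all genes) and 13 higher (34.2%, against 21.4%). In either direction 50% of members and 41.7% of all genes were called. The median absolute log2 fold change was 0.20 for the members and 0.25 for all genes.

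HDAC9, a class IIa enzyme that binds MEF2 factors, rose most. It read 44.2, 40.9 and 43.5 CPM in siNC and 76.4, 92.6 and 78.7 CPM with imatinib, or 193% of control (log2 fold change 0.94, SE 0.0742, adjusted p = 8.83e-09). HDAC5 of the same class rose from 49.1, 52.5 and 48.7 CPM to 67.5, 59.5 and 63.9 CPM (0.35, SE 0.0702, adjusted p = 0.000561). In both genes the imatinib libraries lay above every siNC library. For HDAC5, 24.0% of the exon bases overlap G6PC3 on the opposite strand, and whether reads were counted by strand was not given in the sources used here. HDAC4 rose by 0.27 (adjusted p = 0.00859), and HDAC7 had a value of −0.12 (adjusted p = 0.297).

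HDAC6 and HDAC11 also rose with imatinib. HDAC6 went from 21.1, 25 and 23.5 CPM to 37.9, 36.9 and 38 CPM (162% of control, log2 fold change 0.70, SE 0.0751, adjusted p = 5.26e-07). HDAC11 went to 9.60, 9.62 and 10.7 CPM (171% of control, 0.77, SE 0.0961, adjusted p = 2.89e-06). Both groups of 3 were clear of the controls.

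**Figure D3:**
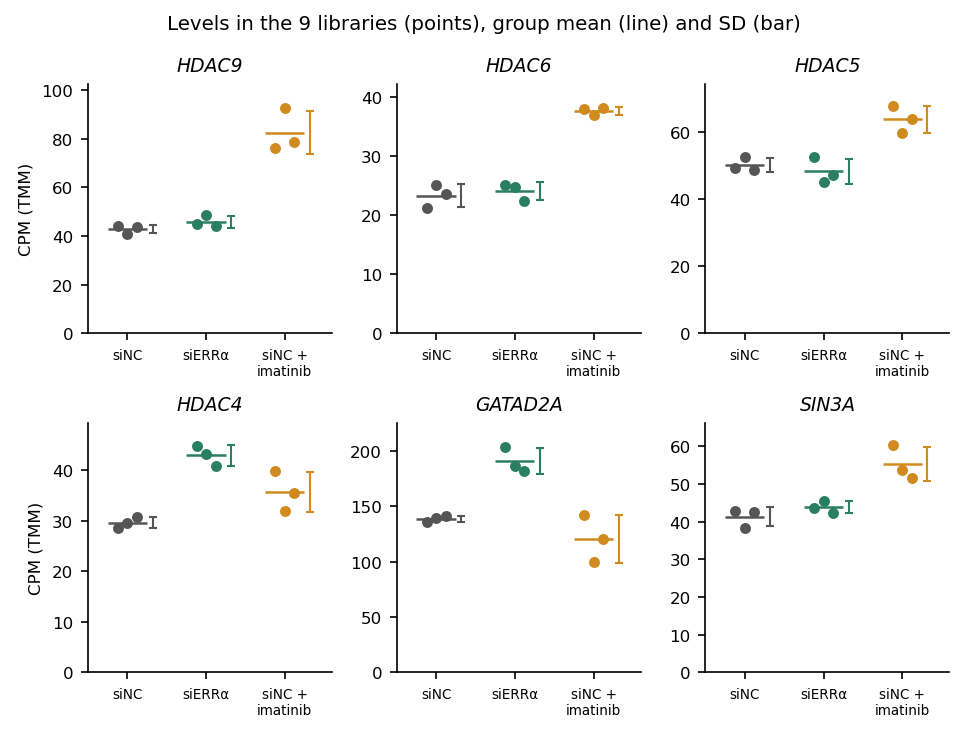
CPM (vertical axes, from 0) of HDAC9, HDAC6, HDAC5, HDAC4, GATAD2A and SIN3A in the 9 libraries, with points for libraries, a line for the group mean and a bar for the SD (n = 3). HDAC9, HDAC6, HDAC5 and SIN3A are higher in the imatinib libraries alone, GATAD2A is higher in the siERRα libraries alone (181 to 204 CPM), and HDAC4 is above siNC in both.

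Sirtuins split again under imatinib. SIRT2 rose from 54.5 ± 2.67 to 69.7 ± 2.75 CPM (log2 fold change 0.36, adjusted p = 0.000808) and SIRT3 from 30.6 ± 2.09 to 36.5 ± 1.84 CPM (0.26, adjusted p = 0.00613), while SIRT7 fell to 18.9, 16.9 and 21.4 CPM (−0.32, SE 0.0878, adjusted p = 0.00624). Each of the 3 had imatinib libraries clear of the controls. SIRT1, SIRT4, SIRT5 and SIRT6 had values of −0.13, 0.07, 0.03 and −0.19 and did not pass.

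Within NuRD, 4 genes rose and 2 fell. RBBP4 went from 420 ± 4.08 to 522 ± 7.35 CPM (0.32, adjusted p = 0.000117) and RBBP7 from 298 ± 2.61 to 348 ± 19 CPM (0.22, adjusted p = 0.00322). RBBP4 shares 22.8% of its exon bases with SYNC on the opposite strand, a gene with 151 reads against 174073 for RBBP4, and its pseudogenes together drew 4582 reads. MBD2 fell to 39.6, 40.6 and 42.5 CPM (78.9% of control, −0.34, SE 0.0643, adjusted p = 0.000279). MTA2 fell from 209 ± 7.01 to 180 ± 7.02 CPM (−0.21, adjusted p = 0.00338), and MTA3 rose by 0.22 (adjusted p = 0.0195). MTA1, CHD3, CHD4, GATAD2A and GATAD2B did not pass, with values between −0.20 and 0.20.

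The scaffolds of CoREST and SIN3 moved as well. RCOR1 fell to 60.8, 56.7 and 58.6 CPM (log2 fold change −0.27, SE 0.0592, adjusted p = 0.00106) and RCOR2 to 42.4, 37.2 and 38.7 CPM (−0.38, SE 0.0729, adjusted p = 0.000325). RCOR3 and KDM1A did not pass, at 0.16 and −0.10. SIN3A rose from 42.7, 38.3 and 42.6 CPM to 60.3, 53.8 and 51.6 CPM (0.42, SE 0.0713, adjusted p = 9.76e-05), and SIN3B fell from 93.6 ± 1.89 to 82.1 ± 7.94 CPM (−0.19, adjusted p = 0.035). The NCoR genes TBL1X, TBL1XR1, NCOR1 and GPS2 had values of 0.11, 0.03, −0.07 and 0.05, short of the threshold. SIN3B lost its call without any 1 of the siNC libraries or without imatinib library 2 or 3 (adjusted p = 0.0526 to 0.2), MTA3 without siNC library 1 or 2 or imatinib library 2 (0.0738 to 0.0785), and HDAC4 without imatinib library 1 (0.063).

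ERRα knockdown and imatinib were then set against each other, since each was compared with the same 3 siNC libraries and a difference between them needs its own test. Against imatinib, 14 of 38 members were lower in siERRα (36.8%, against 26.6% of all genes) and 13 were higher (34.2%, against 25.6%). In either direction 71.1% of members and 52.2% of all genes were called. Without HDAC3, MBD3 and HDAC4, singled out earlier for their knockdown values, 12 were lower and 12 higher. The largest differences were those of MBD3 (−2.08) and HDAC3 (−1.60), given as descriptions.

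HDAC11 and SIRT3, lower after knockdown and higher with imatinib, differed between the treated groups by −1.26 (SE 0.0994, adjusted p = 4.15e-09) and −0.71 (SE 0.0709, adjusted p = 9.38e-08). SIRT7, RCOR1 and RCOR2 were higher after knockdown and lower with imatinib, and their differences between the treated groups were 0.59 (adjusted p = 1.28e-05), 0.48 (adjusted p = 1.26e-06) and 0.59 (adjusted p = 1.57e-06).

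Members called against siNC in 1 treated group alone did not all differ between the treated groups. GATAD2B, TBL1X and SIN3B did not pass there, with log2 differences of 0.075, 0.092 and 0.113 (adjusted p = 0.483, 0.133 and 0.183). HDAC9, HDAC6, HDAC5 and SIN3A were lower in siERRα than with imatinib by 0.85, 0.64, 0.40 and 0.33 on the log2 scale, each past the test (adjusted p between 1.66e-08 and 0.000597). GATAD2A was higher by 0.66 (SE 0.0923, adjusted p = 1.32e-05), SIRT1 by 0.42 (adjusted p = 5.92e-05) and MBD2 by 0.29 (adjusted p = 0.000915). RCOR3 was lower by 0.49 (SE 0.0777, adjusted p = 3.27e-05). HDAC8, SIRT6 and KDM1A, which passed in neither comparison with siNC, were higher in siERRα than with imatinib by 0.36, 0.33 and 0.20 (adjusted p = 0.00657, 0.00505 and 0.00388).

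Some tested members had no call in any comparison, and the share of all genes tested with no call was not counted. HDAC1 had a treated-to-treated difference of 0.07 (SE 0.0501), and SIRT4, SIRT5, CHD3, CHD4, NCOR1, TBL1XR1 and GPS2 likewise did not pass there or against siNC. For HDAC1 all 9 libraries lay between 227.3 and 249.5 CPM.

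Levels were then ordered per kb of merged exon length, the only scale here on which genes can be compared with each other. In siNC, HDAC1 led at 60.5 ± 0.46 CPM per kb, followed by MTA2 (49 ± 1.65), RBBP4 (44.3 ± 0.431), RBBP7 (40.6 ± 0.356) and GATAD2A (18.7 ± 0.387). Neighbours among these 5 had library ranges that did not overlap. RCOR2, HDAC3 and SIRT6 followed, where RCOR2 and HDAC3 overlapped, as did HDAC3 and SIRT6. At the low end, SIRT5 (0.706), HDAC8 (0.501), GPS2 (0.171) and HDAC10 (0.00778) were below 1 CPM per kb, where the shared exon bases of GPS2 and HDAC10 leave their places uncertain. HDAC3 stood at 16.4 ± 0.829 CPM per kb in siNC, 6.54 ± 0.259 in siERRα and 19.9 ± 0.492 with imatinib, and MBD3 at 10.4 ± 0.661, 3.42 ± 0.314 and 14.5 ± 1.06. The 13 members above 10 CPM per kb became 21 with the canonical transcript's length, and RBBP7 then came first, so the order depends on the length used.

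**Figure D4:**
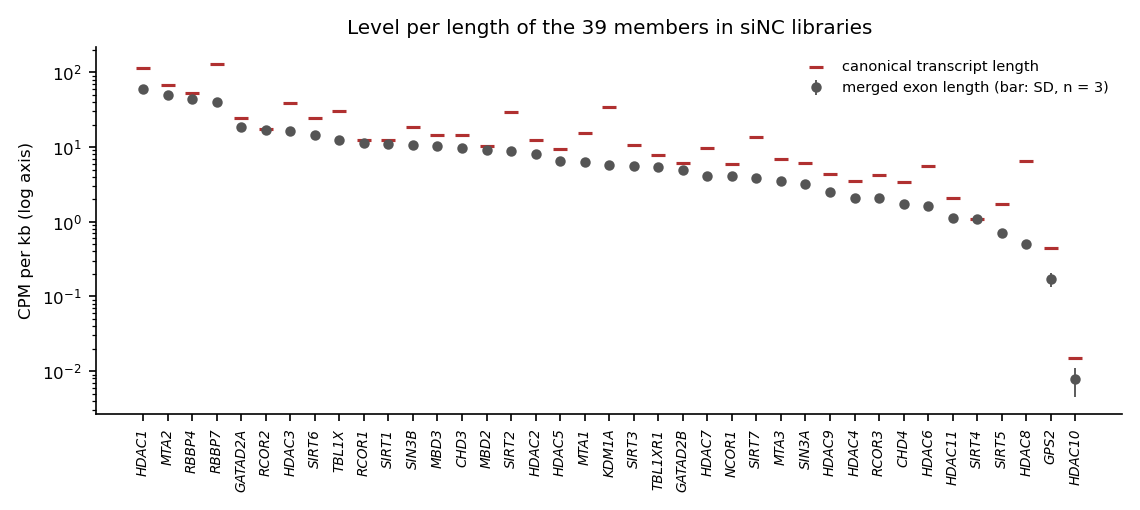
Level of the 39 members in siNC (vertical axis, CPM per kb, log scale), ordered by merged exon length, with grey points for the mean, bars for the SD (n = 3) and red dashes for the level with the canonical transcript's length. HDAC1 is first and HDAC10 last by merged exon length, and the dash lies above the point by differing amounts, as for HDAC8 (0.501 against 6.54) and HDAC9 (2.48 against 4.34).

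The heptamer ATGTTCT, searched on the transcript strand of the 3′ UTR, was in 10 of the 38 tested members (26.3%) and in 2418 of the 12740 tested genes with an annotated 3′ UTR (18.98%). Across all such genes the median knockdown log2 fold change was −0.10 with the heptamer and 0.03 without it, and 30.3% and 12% were called lower. The heptamer had been picked because it stood out in lower genes of these same libraries, so this difference is a description. Genes with the heptamer also had longer 3′ UTRs, with medians of 3237 and 1111 bases. Among the members the medians were 0.07 with the heptamer and 0.07 without. Of the 10 that held it, HDAC3 and RCOR3 were lower, GATAD2B and TBL1X were higher, and HDAC2, MBD2, NCOR1, RBBP4, SIN3A and TBL1XR1 were not called. MBD3, HDAC11 and SIRT3, which were lower too, held none.

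**Figure D5:**
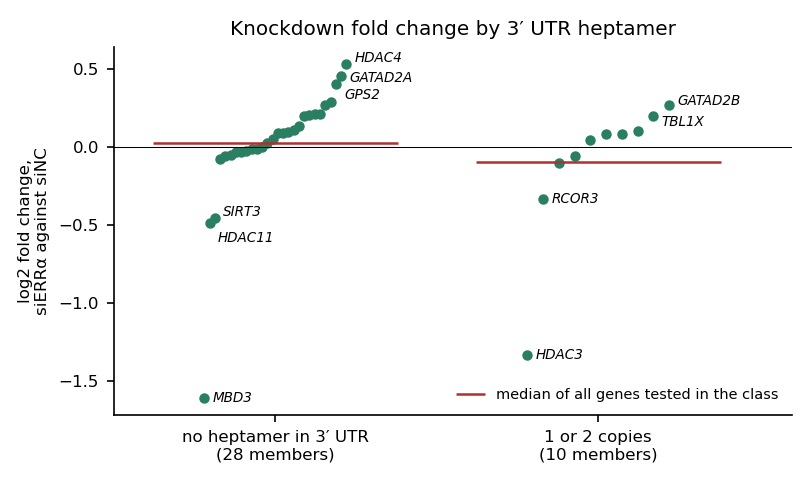
Knockdown log2 fold change (vertical axis) of the 38 tested members, split by whether the 3′ UTR holds ATGTTCT, with 1 green point per member and a red line for the median of all genes tested in the same class. MBD3, with no copy, and HDAC3, with 1 copy, are the lowest points in their classes, and most members of both classes lie near 0.

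The promoter windows, from 250 bases before to 50 after the RefSeq start on GRCh38.p14, were given for 36 of the 39 members. AAGGTCA, the core of the ERR response element, was in none of them on either strand, in 2.46% of the 11277 promoters of tested genes and in 3.97% of all 27305 promoters. The longer TCAAGGTCA, which contains the core, was in none of the members, 0.16% of the promoters of tested genes and 0.36% of all promoters. A motif outside these windows would not be seen.

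No gene beside HDAC3 or MBD3, looked up after their values were seen, was called lower after knockdown. DIAPH1, 1821 bases from HDAC3, rose by 0.19 after knockdown (adjusted p = 0.0135), and RELL2, which starts 101 bases away on the other strand, had a value of −0.25 (adjusted p = 0.198). MEX3D, 5271 bases from MBD3, rose by 0.36 (adjusted p = 0.00191), and UQCR11, 4304 bases away, had a value of 0.03 (adjusted p = 0.831).

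Partners of the members were taken from 7 further lists with 60 tested genes. After knockdown 9 were lower and 9 higher, beside 12.6% and 11.4% of all genes tested. With imatinib 11 were lower and 13 higher, beside 20.3% and 21.4%, and between the treated groups 17 were lower and 17 higher in siERRα, beside 26.6% and 25.6%. The lists are described by their counts and members, and the same shares of all genes stand beside each list. In the further SIN3 subunits 1 of 13 fell and 3 rose after knockdown. SAP30, a SIN3 bridging subunit, fell from 23.1 ± 0.362 to 14.2 ± 1.3 CPM (log2 fold change −0.70, adjusted p = 3.14e-06). With imatinib SINHCAF, another SIN3-HDAC subunit, fell from 22.8 ± 1.62 to 7.67 ± 0.564 CPM (−1.57, adjusted p = 5.57e-10), beyond any member, and SAP30L rose by 0.54 (adjusted p = 2.7e-06).

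Of 10 CoREST and REST partners, 3 fell after knockdown. REST, the neuronal-gene repressor that recruits CoREST, fell from 57.6 ± 3.86 to 44.9 ± 4.28 CPM (−0.36, adjusted p = 0.00277). With imatinib ZMYM3 rose by 0.43 (adjusted p = 4.38e-05) and KDM1B, the paralog of KDM1A, fell by 0.36 (adjusted p = 0.000267). Among 7 MiDAC, MIER and RERE genes, 2 rose after knockdown: RERE by 0.54 (adjusted p = 0.000681) and MIER3 by 0.47 (adjusted p = 0.000102).

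The opposing enzymes were measured too. Of 10 lysine acetyltransferases, 4 fell and 1 rose after knockdown, beside 12.6% and 11.4% of all genes. KAT2A, the catalytic subunit of SAGA, fell from 38.8 ± 2.50 to 24.8 ± 2.44 CPM (−0.65, adjusted p = 2.45e-05), and EP300 rose by 0.32 (adjusted p = 0.0331). With imatinib KAT2B fell from 148 ± 6.65 to 96.0 ± 5.38 CPM (−0.62, adjusted p = 5.57e-07). KAT2A was lower with imatinib as well (−0.31, adjusted p = 0.00736). Of 7 genes that supply NAD, the sirtuin cosubstrate, NAMPT fell by 0.37 after knockdown (adjusted p = 0.00176) and by 0.33 with imatinib (adjusted p = 0.0023), and QPRT rose with imatinib by 0.46 (adjusted p = 8.12e-06). Among 6 bromodomain readers of acetyl-lysine, BRD2 fell by 0.34 with imatinib (adjusted p = 0.000112).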

How the data were processed

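RNA-seq of 9 GIST-T1 libraries was used. The authors aligned reads to GRCh38 with STAR 2.7.3a and deposited raw gene counts from featureCounts 2.0.1. The authors tested with DESeq2. Strand setting, annotation and the handling of shared bases were not given in the sources used here.

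From those deposited counts, all libraries were fitted together with edgeR 4.0.16 (R 4.3.3), using TMM scaling, filterByExpr (minimum count 10, minimum total 15) and the robust quasi-likelihood F-test. Calls had a Benjamini-Hochberg adjusted p under 0.05 over the 16976 genes tested, and the fit was tested on simulated data. Replicates differed by more than sampling noise (chi-square per degree of freedom 3.77 to 16.5). Exon lengths, 3′ UTRs and overlaps came from GENCODE 44 (GRCh38), promoters from RefSeq (GRCh38.p14).

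Alternatives were DESeq2 1.42.0, its size factors, limma-voom (limma 3.58.1), other filters, the 6 compared libraries, a replicate block and each library left out. The members and lists were chosen with earlier results of these data known. All members were named, and from each partner list at most 2 called genes per comparison with the largest absolute change. Some genes that this rule names are not reported here. The design note written at that stage put HDAC4 among the lower genes, but it was higher after knockdown.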

Additional observations from a re-analysis of the deposited data

How the results depend on the processing

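No called member changed sign under any alternative. Of the members not called, 8 of 25 changed sign in at least 1 setting for knockdown, 5 of 19 for imatinib and 1 of 11 between the treated groups, all with reported log2 fold changes of at most 0.07 in size. Of the 38 members, 32 kept their side of the threshold in every setting for knockdown, 28 for imatinib and 28 between the treated groups. Requiring a log2 fold change of 0.5 or more in size as well left, of all genes, 897 lower and 336 higher after knockdown, 1191 and 1797 with imatinib, and 2673 and 1795 between the treated groups. Of the 38 members, beside 16976 genes tested in all, it left 2 and 1, 0 and 3, and 6 and 3. The 2 and 1 after knockdown were HDAC3, MBD3 and HDAC4, the genes singled out earlier for that change. HDAC3 and MBD3 were also among the 6, so these counts are a description. Canonical transcript length, an alternative chosen after seeing the data, put 21 members above 10 CPM per kb.

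Leaving out 1 library at a time gave 5 to 5 lower and 4 to 10 higher members after knockdown (1739 to 2383 and 1163 to 2018 of all genes), 5 to 8 and 12 to 15 with imatinib (2824 to 3784 and 2970 to 3996), and 12 to 15 and 10 to 14 between the treated groups (4168 to 4598 and 3993 to 4336). The 4 higher members were found without siNC library 1, 5 without siERRα library 1, and the 1163 genes without siNC library 3. By edgeR, without siNC library 1 the calls of SIRT7, GATAD2B, RCOR1 and RCOR2 were lost. Between the treated groups HDAC2, HDAC7, MTA1, MTA2 and MTA3 lost the call without at least 1 library (adjusted p 0.0538 to 0.204). The HDAC4 difference, a description, also crossed the threshold without imatinib library 2. With imatinib, NCOR1 gained a call without imatinib library 1 (adjusted p 0.0221). HDAC2, SIRT1, CHD3, MTA1, GATAD2A and GATAD2B also gained an imatinib call in at least 1 alternative setting (0.0026 to 0.0459). SIRT2 and CHD4 gained a knockdown call without siERRα library 2 (0.0437 and 0.0263). Between the treated groups CHD3, NCOR1, TBL1XR1 and SIN3B gained a call in at least 1 alternative setting (0.00189 to 0.0464). The cause was not tested.

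Titles give every library of a group the same number, and deviations of libraries with the same column number correlated between −0.1 and 0.147, so the numbers were not taken as pairs. With them as a replicate block, 5 members were lower and 7 higher after knockdown, 7 and 13 with imatinib, and 14 and 13 between the treated groups; RCOR2 lost its knockdown call and GATAD2A gained an imatinib call. Few reads limit HDAC10 (15 reads) and GPS2 (224 reads), and both share exon bases with a same-strand gene, so low expression and reads left unassigned cannot be told apart.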
